A study of Homo sapiens with 12 samples.

Results

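The genes described here are 10 transcription factors that answer rapidly to growth factor and stress signals in many cell types: JUN, JUNB, FOS, FOSL1 and FOSL2, which build the dimeric factor AP-1, the zinc finger factor EGR1, and the Krüppel-like factors KLF2, KLF4, KLF5 and KLF6. They are 10 of the 63677 genes in the count files, were taken as a named list, and were found by their Ensembl identifiers, matched to symbols in GENCODE v44. KLF4 was chosen by its level, which was lower with calcipotriol (CPT) both in unprimed and in primed cells, so its values with CPT are given as a description without a test, and the list as a whole was drawn up with results of these data known.

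The libraries come from MiaPaca2, an established human cell line of pancreatic ductal adenocarcinoma (PDAC) with the genotype labelled WT, treated for 24 h in 4 groups of 3. Con cells received DMSO, CPT cells received the Vitamin D analogue calcipotriol at 1 µM, GTA+5-Aza cells received glyceryl triacetate (GTA, an acetate donor) at 2 mM and 5-Aza-2′-deoxycytidine (5-Aza, an inhibitor of DNA methylation) at 1 µM, and CPT+GTA+5-Aza cells received all of them. Cells given GTA and 5-Aza are called primed, and the study asked whether priming moves these cells towards a state that answers to Vitamin D. The labels do not say that the 3 libraries of a group came from separate cultures, and the study's methods call the samples of its experiments independent without saying in what way, so p-values measure the spread between these libraries, which may be technical, and all cells are of 1 line.

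AP-1 is a dimer of a JUN protein with a FOS protein or another JUN protein, and its genes are switched on within minutes of ERK or JNK kinase signaling, as is EGR1 through the serum response factor SRF. JUN and FOS are strong activators, JUNB is often the weaker one, and FOSL1 and FOSL2 lack the strong activation domains of FOS and persist in cells with active RAS signaling, which is frequent in PDAC. KLF factors bind GC-rich and CACCC sequences: KLF4 and KLF5 are epithelial factors known in gut and pancreas, KLF2 is best known from endothelium, and KLF6 is widely expressed.

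The total count per library was 16162490 to 21224665, and the 12 pairs of replicates differed by 3.93 to 17.5 chi-square units per degree of freedom, so no library repeated another. The largest values belonged to CPT replicate 2, with 17.5 against CPT replicate 3 and 9.40 against CPT replicate 1. Outside the CPT group the highest was 7.56, for Con replicates 1 and 2. Of the markers that define the labelled cell type, KRT8, KRT18 and SOX9 were abundant (KRT8 at 1409 to 1740 CPM). KRT19 was at 28.4 to 41.4 CPM, MUC1 at 1.29 to 3.38 CPM and KRT7 at 0.210 to 2.77 CPM. The mean of KRT7 was 0.389 CPM in Con, 0.735 in CPT, 2.02 in GTA+5-Aza and 1.98 in CPT+GTA+5-Aza. EPCAM had at most 1 count and CDH1 at most 4 in any library, and CFTR had none. Of the mesenchymal markers, VIM was at 5308 to 6593 CPM and ZEB1 at 46.2 to 65.9 CPM. FN1 was at 2.31 to 3.71 CPM, and CDH2 had at most 5 counts in a library. The 5 acinar and islet markers were at 0 in all libraries, and the 5 immune markers summed to 0.306 to 1.74 CPM. The Vitamin D receptor gene VDR was at 1.10 to 2.65 CPM, and CYP24A1, the classical target gene of the receptor, had at most 2 counts in a library. In bulk RNA, a change in the number of cells that express a gene and a change in RNA per cell cannot be told apart. Levels are in CPM, counts scaled by edgeR to a common library size with TMM factors.

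Promoter sequences are shown for 5 of the genes, because their windows hold the AP-1-type, CArG or EGR1 sites counted below, in factors that were called with priming (EGR1, JUN, FOSL2, KLF2) or chosen by their level with CPT (KLF4). KLF6, whose window also holds such sites, is not printed. Each sequence is 5′ to 3′ on the gene's own strand, 300 bases long from 250 before to 50 after the start of the RefSeq gene (GRCh38.p14). Capitals mark the CArG boxes bound by SRF and the EGR1 site GCGNGGGCG in EGR1, the AP-1-like site TGACATCA in JUN, the AP-1 site TGACTCA in FOSL2, and the EGR1 sites, read on either strand, in KLF2 and KLF4. The windows are chr5:138465229-138465528 (EGR1, plus strand), chr1:58783998-58784297 (JUN, minus strand), chr2:28392608-28392907 (FOSL2, plus strand), chr19:16324576-16324875 (KLF2, plus strand) and chr9:107489720-107490019 (KLF4, minus strand).
EGR1: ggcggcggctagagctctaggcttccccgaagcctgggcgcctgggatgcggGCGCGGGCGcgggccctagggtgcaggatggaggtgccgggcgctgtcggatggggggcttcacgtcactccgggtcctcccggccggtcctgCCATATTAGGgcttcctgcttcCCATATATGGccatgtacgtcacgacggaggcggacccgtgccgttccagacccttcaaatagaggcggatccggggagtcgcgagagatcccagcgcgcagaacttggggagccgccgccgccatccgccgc
JUN: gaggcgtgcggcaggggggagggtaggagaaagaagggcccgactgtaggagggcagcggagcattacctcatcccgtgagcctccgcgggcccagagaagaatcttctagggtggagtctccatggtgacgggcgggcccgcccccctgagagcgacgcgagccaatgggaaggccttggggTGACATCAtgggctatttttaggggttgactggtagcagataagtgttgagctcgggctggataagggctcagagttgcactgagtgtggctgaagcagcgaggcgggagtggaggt
FOSL2: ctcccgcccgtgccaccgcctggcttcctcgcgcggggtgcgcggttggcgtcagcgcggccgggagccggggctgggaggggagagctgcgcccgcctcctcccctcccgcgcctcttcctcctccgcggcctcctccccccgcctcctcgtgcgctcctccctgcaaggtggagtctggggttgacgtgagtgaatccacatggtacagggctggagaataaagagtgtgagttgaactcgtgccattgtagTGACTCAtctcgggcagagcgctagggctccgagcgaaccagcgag
KLF2: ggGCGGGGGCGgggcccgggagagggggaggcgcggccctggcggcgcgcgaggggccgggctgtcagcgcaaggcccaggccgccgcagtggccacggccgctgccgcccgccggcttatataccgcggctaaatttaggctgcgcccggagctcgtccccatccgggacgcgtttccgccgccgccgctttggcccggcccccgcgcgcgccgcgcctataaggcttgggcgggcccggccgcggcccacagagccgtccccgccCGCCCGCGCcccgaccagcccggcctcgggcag
KLF4: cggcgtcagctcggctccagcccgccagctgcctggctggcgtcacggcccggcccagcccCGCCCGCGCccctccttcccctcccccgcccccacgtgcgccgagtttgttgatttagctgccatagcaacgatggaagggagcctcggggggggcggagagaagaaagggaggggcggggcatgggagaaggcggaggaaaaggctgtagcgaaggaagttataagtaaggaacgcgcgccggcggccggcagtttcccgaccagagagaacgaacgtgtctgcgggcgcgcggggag

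RefSeq promoters were found for 9 of the 10 genes, with 2 starts for KLF5. Both strands were searched in each window, and shares are of all 35116 promoters of the same length. CArG boxes were found in EGR1 alone among the 9 genes, with 2 sites, against 1.29% of all promoters with at least 1. The EGR1 site was found in KLF2 (2 sites), KLF4, KLF6 and EGR1 itself, against 9.43% of all promoters. The AP-1 site TGACTCA was found in FOSL2 only (4.95% of all promoters), the AP-1-like site TGACATCA in JUN and KLF6 (2.61%), and the CRE site TGACGTCA in none (1.85%). The GC box GGGCGG, which overlaps many EGR1 sites, was found in 7 of the 9 genes (45% of all promoters), and CACCC in 6 (59.9%). CCAAT was found in 4 of the 9 (34.6%) and TATAAA in 3 (11.5%). A match of letters is not evidence of binding, and absence from a window says only that these letters are not in it. The promoters of 8 of the 9 genes hold more CpG dinucleotides than the median of all promoters, 14, at every listed start: 49 in KLF2, 33 in KLF4, KLF6 and EGR1, 30 in FOS, 29 in FOSL2 and JUNB and 16 in JUN. KLF5 has 4 at one start and 37 at the other.

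Levels of different genes were compared per kilobase of exon. On this scale FOSL1 was the highest of the 10 factors, with a mean of 62.0 CPM per kb over the 12 libraries, followed by KLF2 (33.6), FOSL2 (31.3), KLF6 (23.6), JUN (17.9), JUNB (7.86), EGR1 (6.38), KLF4 (1.63), FOS (1.11) and KLF5 (0.567). FOSL1 stood at the 96.2nd percentile of the tested genes and KLF5 at the 16.4th. The order differed between groups. In Con, FOSL2 (35.0 CPM per kb) stood above KLF2 (26.0), and in GTA+5-Aza KLF2 (37.2) stood above FOSL2 (28.6), with no overlap of libraries in either group. Neighbours whose libraries overlapped were KLF2 and KLF6 in Con, JUNB and EGR1 as well as KLF4 and FOS in CPT, JUN and KLF6 as well as JUNB and EGR1 in GTA+5-Aza, and KLF6 and JUN as well as FOS and KLF4 in CPT+GTA+5-Aza.

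**Figure D1:**
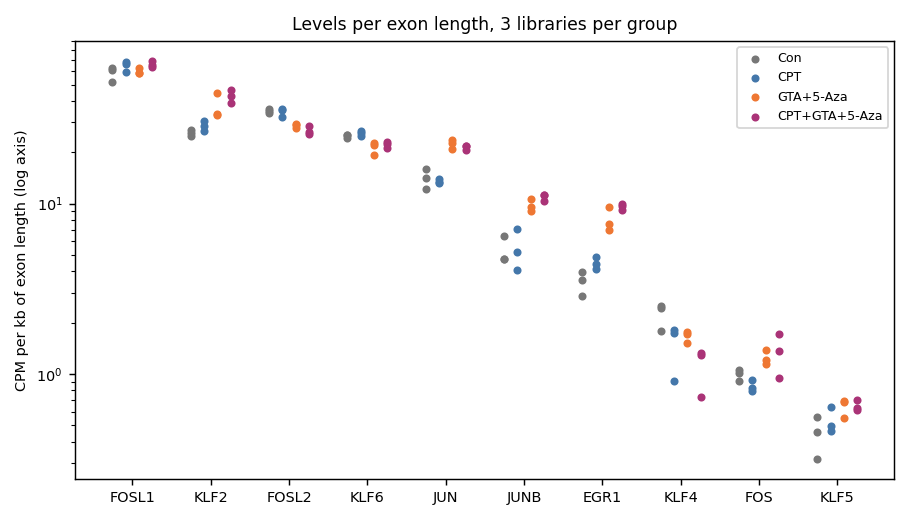
Level of each factor in CPM per kb of exon length on a log axis, with 1 point per library and the 4 groups side by side, ordered by the mean over 12 libraries. FOSL1 is at the top in every group (mean 62.0), and KLF4, FOS and KLF5 lie below 3 in all libraries.

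Among the FOS-type factors, FOSL1 made up 61.8% ± 2.11 (SD, n = 3) of the summed level per kb in Con and 66.7% ± 0.572 in GTA+5-Aza, and 64.4% ± 0.693 in CPT and 69.9% ± 1.67 in CPT+GTA+5-Aza. FOSL2 made up 37.2% ± 1.97 in Con, 34.8% ± 0.619 in CPT, 31.9% ± 0.665 in GTA+5-Aza and 28.7% ± 1.97 in CPT+GTA+5-Aza. Neither share overlapped between Con and GTA+5-Aza or between CPT and CPT+GTA+5-Aza. FOS itself stayed between 0.766% and 1.85% in all libraries. Among the 4 KLF factors, KLF2 went from 48.4% ± 1.12 in Con to 60.8% ± 5.52 in GTA+5-Aza, and KLF6 from 46.6% ± 1.76 to 35.3% ± 5.26.

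GTA+5-Aza was tested without CPT (against Con) and with CPT (CPT+GTA+5-Aza against CPT). These comparisons share no library. In both, EGR1, JUNB, JUN and KLF2 rose and FOSL2 and KLF6 fell, and FOS, FOSL1, KLF4 and KLF5 did not pass the test. Genes were called at a Benjamini-Hochberg adjusted p under 0.05 (edgeR, quasi-likelihood), adjusted over the 17123 genes tested, and all 10 factors passed the filter on low counts. Without CPT, 4 of 10 were called higher (9.95% of all tested genes were) and 2 lower (7.53%). With CPT the counts were again 4 (9.57%) and 2 (7.39%). The median log2 fold change of the 10 factors was 0.42 without and 0.43 with CPT, and that of all tested genes 0.0069 and 0.0055. The study's thresholds name a fold change above 1.5 and a P under 0.05, without saying whether P was adjusted. They were read here as an unadjusted p under 0.05 together with more than a 1.5-fold change. By this reading JUN, JUNB and EGR1 were called higher without CPT (6.82% of all tested genes), and these and FOS with CPT (6.93%). None was called lower (1.62% and 1.74% of all tested genes). Marker sums moved between the same groups. The 9 ductal and epithelial markers summed to 2407 to 2556 CPM in Con and 2658 to 2840 CPM in GTA+5-Aza, the 4 mesenchymal markers to 6223 to 6341 and 5365 to 5723 CPM, and the 6 fibroblast markers to 879 to 932 and 988 to 1069 CPM. With CPT the ductal sums were 2247 to 2687 CPM in CPT and 2703 to 2799 CPM in CPT+GTA+5-Aza, the mesenchymal sums 6124 to 6663 and 5494 to 5786 CPM, and the fibroblast sums 780 to 848 and 916 to 942 CPM. Most of the fibroblast sum was COL1A2, at 689 to 943 CPM over all libraries, with LUM at 0 and DCN at most at 2 counts in a library. Most of the mesenchymal sum was VIM, at 5308 to 6593 CPM over all libraries. Most of the ductal sum was KRT8, at 1409 to 1740 CPM, and KRT18, at 644 to 854 CPM. The part of these sums in the results was not tested.

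EGR1 (ENSG00000120738, chr5:138465479-138469303, plus strand, GRCh38), the early growth response factor, changed most. It was at 9.04, 12.4 and 11.1 CPM in the Con libraries and at 23.7, 21.9 and 29.8 CPM in the GTA+5-Aza libraries. In CPT it was at 13.9, 13.0 and 15.2 CPM, and in CPT+GTA+5-Aza at 30.3, 31.3 and 28.7 CPM. All 6 primed libraries were above all 6 unprimed ones. EGR1 rose 2.31-fold without CPT, a log2 fold change of 1.21 (SE 0.14, adjusted p = 6.31e-07 by edgeR's quasi-likelihood test). With CPT it rose 2.15-fold, a log2 fold change of 1.10 (SE 0.13, adjusted p = 1.73e-06 in the same test). Its promoter carries the pair of CArG boxes printed above.

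JUNB (ENSG00000171223, chr19:12791486-12793315, plus strand), the JUN family member that often opposes JUN, was at 8.62, 11.8 and 8.70 CPM in Con and at 17.5, 16.5 and 19.5 CPM in GTA+5-Aza. It was at 9.57, 13.0 and 7.48 CPM in CPT and at 20.4, 20.6 and 18.9 CPM in CPT+GTA+5-Aza. Primed libraries lay above unprimed ones without overlap. The log2 fold change was 0.88 (SE 0.16, adjusted p = 0.000399) without CPT and 0.99 (SE 0.16, adjusted p = 9.88e-05) with CPT by edgeR's quasi-likelihood test. The GC content of its exons, 64.9%, is the highest of the 10 factors. Over the alternatives, which include removal of the GC trend, the value was 0.70 to 1.04 without and 0.82 to 1.23 with CPT. It stayed called in each.

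JUN (ENSG00000177606, chr1:58776845-58784048, minus strand), the central subunit of AP-1, was at 44.4, 58.0 and 51.0 CPM in Con and at 82.5, 75.8 and 86.2 CPM in GTA+5-Aza. It was at 50.8, 48.4 and 47.9 CPM in CPT and at 74.3, 78.7 and 78.5 CPM in CPT+GTA+5-Aza. The lowest primed library was above the highest unprimed one. JUN rose by a log2 fold change of 0.67 (SE 0.09, adjusted p = 4.44e-06) without CPT and 0.65 (SE 0.09, adjusted p = 6.82e-06) with CPT by edgeR's quasi-likelihood test. JUN made up 72.8% ± 1.75 of the summed JUN and JUNB level per kb in Con and 69.8% ± 0.729 in GTA+5-Aza, without overlap of libraries, and 71.5% ± 5.65 in CPT and 66.1% ± 1.49 in CPT+GTA+5-Aza, which overlapped.

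KLF2 (ENSG00000127528, chr19:16324826-16328685, plus strand), a factor that holds endothelial cells quiescent, was at 73.4, 76.5 and 69.9 CPM in Con and at 95.1, 93.8 and 125.4 CPM in GTA+5-Aza. In CPT it was at 75.5, 81.0 and 86.5 CPM, and in CPT+GTA+5-Aza at 109.9, 130.5 and 121.1 CPM. All primed libraries were above all unprimed ones, and the third GTA+5-Aza library stood above the other 2. The log2 fold change was 0.52 (SE 0.09, adjusted p = 0.000252) without CPT and 0.57 (SE 0.09, adjusted p = 7.21e-05) with CPT by edgeR's quasi-likelihood test. It was 0.37 without that library. The exons of KLF2 have a GC content of 61.2%, and after each library's trend with GC content was removed the log2 fold changes were 0.36 and 0.43, both still called.

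FOSL2 (ENSG00000075426, chr2:28392448-28417317, plus strand), a FOS-type factor without the strong activation domain, was at 249.6, 257.6 and 244.9 CPM in Con and at 206.3, 198.8 and 209.0 CPM in GTA+5-Aza. It was at 252.6, 258.4 and 232.2 CPM in CPT and at 205.2, 189.0 and 184.7 CPM in CPT+GTA+5-Aza. All primed libraries were below all unprimed ones. FOSL2 fell by 0.29 on the log2 scale (SE 0.06, adjusted p = 0.000949) without CPT and by 0.36 (SE 0.06, adjusted p = 9.94e-05) with CPT by edgeR's quasi-likelihood test.

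KLF6 (ENSG00000067082, chr10:3775996-3785281, minus strand), a broadly expressed factor described as a tumor suppressor, was at 155.4, 150.0 and 154.2 CPM in Con and at 138.8, 135.1 and 119.0 CPM in GTA+5-Aza. It was at 153.9, 163.1 and 158.7 CPM in CPT and at 136.7, 130.4 and 140.7 CPM in CPT+GTA+5-Aza. All primed libraries were below all unprimed ones, but the difference was the smallest of those called. KLF6 fell by 0.23 on the log2 scale (SE 0.07, adjusted p = 0.0160) without CPT and by 0.22 (SE 0.07, adjusted p = 0.0183) with CPT by edgeR's quasi-likelihood test. Without GTA+5-Aza replicate 3, the lowest library, the log2 fold change was -0.16 (adjusted p = 0.123), without Con replicate 1 or 3 the adjusted p was 0.0568 and 0.0551, and without CPT+GTA+5-Aza replicate 1 or 2 it was 0.0514 and 0.101 in the comparison with CPT, so the call of KLF6 rests on single libraries. It is also lost when libraries are scaled by size alone (adjusted p = 0.0505 and 0.0560).

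FOS (ENSG00000170345, chr14:75278826-75282230, plus strand), the prototype immediate early gene, was low, with 46 to 89 counts per library. It was at 2.89, 3.24 and 3.36 CPM in Con and at 3.63, 3.86 and 4.40 CPM in GTA+5-Aza, and at 2.53, 2.95 and 2.62 CPM in CPT and at 3.01, 4.37 and 5.45 CPM in CPT+GTA+5-Aza. Primed libraries lay above the unprimed libraries of the same CPT setting, but with CPT the gap was only 2.95 to 3.01 CPM. The counts there were 60 in CPT replicate 2 and 57 in CPT+GTA+5-Aza replicate 1, so the gap arose with scaling. CPT+GTA+5-Aza replicate 1 lay within the range of Con, and the spread in CPT+GTA+5-Aza was the widest. The log2 fold change was 0.32 (SE 0.25, adjusted p = 0.433) without CPT and 0.66 (SE 0.26, adjusted p = 0.0799) with CPT by edgeR's quasi-likelihood test. Without CPT+GTA+5-Aza replicate 1, the lowest of its group, it was 0.86 (adjusted p = 0.0349).

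FOSL1 (ENSG00000175592, chr11:65892049-65900573, minus strand), the FOS-type factor tied to ERK activity in carcinoma cells, was at 97.8 to 118.5 CPM in Con, 111.1 to 127.4 CPM in CPT, 110.2 to 118.2 CPM in GTA+5-Aza and 119.0 to 130.3 CPM in CPT+GTA+5-Aza. Its log2 fold change with priming was 0.04 in both comparisons, with 95% intervals of -0.12 to 0.19 in both, and it was -0.08 and -0.07 with the GC trend removed. KLF5 (ENSG00000102554, chr13:73054976-73077541, plus strand), an epithelial growth factor-responsive KLF, had 24 to 51 counts per library, and its log2 fold change was 0.53 (95% interval -0.14 to 1.21) without and 0.29 (-0.38 to 0.96) with CPT. No difference of KLF5 was detectable at this depth.

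**Figure D2:**
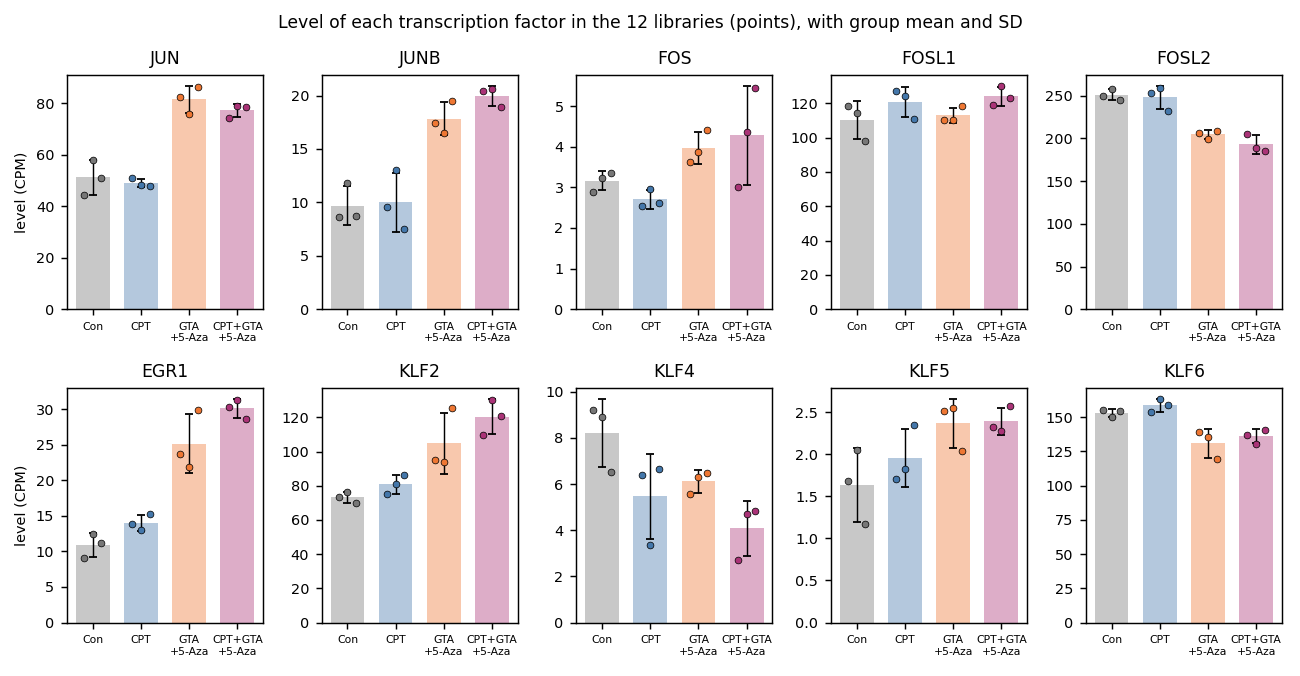
Level of each factor in CPM by group, with 1 point per library, a bar at the group mean and the SD as error bar (n = 3). EGR1, JUNB, JUN and KLF2 are higher and FOSL2 and KLF6 lower in both primed groups, without overlap with the matching unprimed group, and KLF4 is lowest in CPT+GTA+5-Aza (4.08 CPM).

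KLF4 (ENSG00000136826, chr9:107484852-107490482, minus strand), an epithelial differentiation factor, was at 9.20, 8.91 and 6.52 CPM in Con and at 6.38, 3.34 and 6.66 CPM in CPT. It was at 5.56, 6.31 and 6.49 CPM in GTA+5-Aza and at 2.69, 4.71 and 4.84 CPM in CPT+GTA+5-Aza. The lowest Con library lay below the highest CPT library, so the unprimed groups overlapped. The primed groups did not, with CPT libraries lower. Of all tested genes 4.74% had such a gap, but KLF4 was chosen by its fall there, so the share does not measure how unusual it is. These 51 to 187 counts per library correspond to log2 fold changes with CPT of -0.59 in unprimed and -0.59 in primed cells. The size of both depended on 1 library. Without CPT replicate 2 the value in unprimed cells was -0.33, and without CPT+GTA+5-Aza replicate 1 the value in primed cells was -0.36. Leaving out any 1 library gave -0.76 to -0.33 in unprimed and -0.73 to -0.36 in primed cells.

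With priming, the log2 fold change of KLF4 was -0.42 (SE 0.24, adjusted p = 0.244) without CPT and -0.42 (SE 0.25, adjusted p = 0.283) with CPT by edgeR's quasi-likelihood test. The same libraries chose the gene, so this test is not independent of the choice. The 3 GTA+5-Aza libraries lay below all Con libraries, and CPT and CPT+GTA+5-Aza overlapped. Without CPT replicate 2, the lowest CPT library, the comparison with CPT gave -0.69. That library took part in the fall that chose KLF4, so this value is a description. Counted by overlap of libraries without CPT, 5 factors (EGR1, JUN, JUNB, KLF2, FOS) were higher (18.1% of all tested genes) and FOSL2 and KLF6 lower (16%). KLF4 is left out of this count, since its Con values took part in its choice. With CPT these were again the same 5 factors (16.4%), FOS only by a narrow gap, and FOSL2 and KLF6 (14.4%).

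CPT was compared in unprimed cells, in primed cells and averaged over both. KLF4 was given no test here, and no other factor was called in any of these comparisons by edgeR's quasi-likelihood test. Of all tested genes, 0% were called in unprimed cells, 0% in primed cells and 0.00584% averaged, while 4.28%, 2.71% and 4.51% had an unadjusted p under 0.05. DESeq2 called 4 genes in unprimed cells, 1 in primed cells and 15 averaged, and none of the factors tested with CPT. KLF4 aside, an unadjusted p under 0.05 was reached by EGR1 in unprimed cells, KLF2 in primed cells, and EGR1, KLF2 and FOSL1 averaged. EGR1 was higher in each CPT library than in each Con library, as 3.81% of all tested genes were, with a log2 fold change of 0.37 (95% interval 0.08 to 0.65, adjusted p = 1 by edgeR's quasi-likelihood test). In primed cells its libraries overlapped and the value was 0.26 (-0.0038 to 0.53, adjusted p = 1.00 in the same test), and averaged it was 0.31 (0.12 to 0.51, adjusted p = 0.842). KLF2 had 0.17 (0.04 to 0.31) and FOSL1 0.13 (0.03 to 0.24) averaged over both, each with an adjusted p of 1.00 in edgeR's test. In primed cells FOSL1 was higher in each CPT library (4.42% of all tested genes). JUN had -0.07 (-0.20 to 0.06), FOSL2 -0.05 (-0.14 to 0.04), KLF6 0.05 (-0.04 to 0.15) and JUNB 0.11 (-0.13 to 0.34). The intervals of FOS (-0.43 to 0.31) and KLF5 (-0.34 to 0.61) were the widest.

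**Figure D3:**
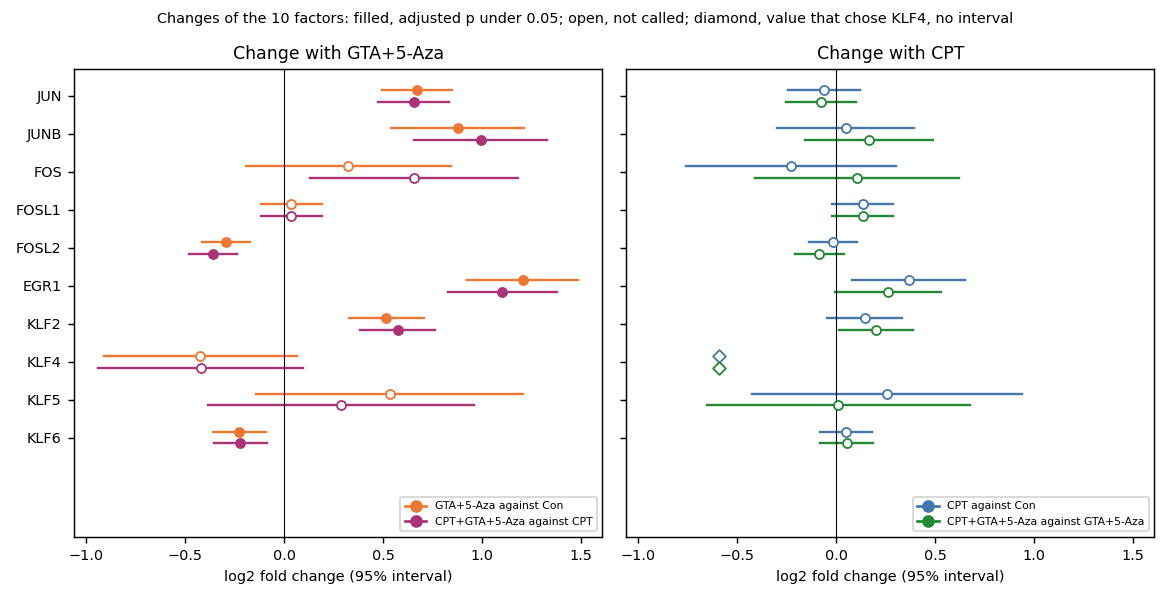
Log2 fold change (points) and 95% interval (lines) of each factor with GTA+5-Aza (left) and with CPT (right), each in the absence and presence of the other treatment. Filled points passed an adjusted p under 0.05, and the diamonds are KLF4 with CPT (-0.59 and -0.59), drawn without an interval because they chose the gene. With GTA+5-Aza the points of both comparisons lie on the same side of 0 for the 6 called factors, and with CPT no tested point is filled.

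The difference between the CPT effects of primed and unprimed cells equals the difference between the priming effects. KLF4 was given no test of it. By edgeR's quasi-likelihood test it was called for none of the other factors. It was called for 0% of all tested genes, with 2.63% at an unadjusted p under 0.05. The difference was -0.10 (95% interval -0.49 to 0.29) on the log2 scale for EGR1, -0.02 (-0.27 to 0.24) for JUN, 0.12 (-0.36 to 0.59) for JUNB and 0.06 (-0.21 to 0.32) for KLF2. For FOSL2 it was -0.07 (-0.24 to 0.10), for KLF6 0.0037 (-0.19 to 0.19) and for FOSL1 -0.00028 (-0.22 to 0.22). FOS had 0.33 (-0.41 to 1.07) and KLF5 -0.25 (-1.20 to 0.70). These intervals give the range of differences compatible with 3 libraries per group. They are not limits of detection, since a call also had to pass the adjustment over all tested genes.

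Partners, inducers and known target genes of the factors were counted in 9 lists written with results of these data known. The lists share members, for example IER3, TGFB1, NAB2 and FOSB. All calls are by edgeR's quasi-likelihood test at an adjusted p under 0.05, and the median over all tested genes was 0.0069 without and 0.0055 with CPT. The counts of each list stand beside shares of all tested genes of 9.95% higher and 7.53% lower without CPT and 9.57% higher and 7.39% lower with CPT. Of the AP-1 partners, 10 of 14 were tested. Without CPT 2 rose and 2 fell, with CPT 3 rose and none fell, and the medians were 0.21 and 0.30. JUND, a JUN protein with steady expression, was at 62.4 ± 5.48 CPM in Con and 77.5 ± 13.1 in GTA+5-Aza, a log2 fold change of 0.31 (adjusted p = 0.0485), and of 0.37 (adjusted p = 0.0205) with CPT. JDP2, a repressor of AP-1, rose by 1.60 and 1.75 from 0.560 ± 0.147 CPM in Con. FOSB, a FOS paralog, rose with CPT (1.12, adjusted p = 0.0284) and had 0.78 (adjusted p = 0.138) without. ATF7, a CRE-binding factor, fell by 0.35 without CPT (adjusted p = 0.0366) and had -0.29 (adjusted p = 0.0888) with CPT.

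Of the other KLF factors 7 of 13 were tested, and 2 rose in each comparison: KLF13, a repressor-type factor, by 0.64 and 0.54, and KLF15, a metabolic regulator, by 1.33 and 1.86 from 0.818 ± 0.290 CPM in Con. The medians of the list were 0.07 and 0.11. Of the EGR family and its NAB co-repressors, 4 of 5 were tested and 2 rose in each comparison. NAB2, which binds and silences EGR proteins, rose by 0.46 and 0.55, NAB1 by 0.29 without CPT and had 0.18 (adjusted p = 0.193) with CPT, and EGR3 rose by 1.36 with CPT and had 0.93 (adjusted p = 0.104) without. Of the 6 SRF and ternary complex factors, the ETS factor ELK3 rose by 0.40 and 0.42 and the SRF coactivator MRTFA fell by 0.37 in each comparison. SRF, ELK1, ELK4 and MRTFB were not called, and the medians were -0.01 and -0.06.

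Of the other immediate early genes 29 of 30 were tested. In each comparison 12 rose and 2 fell, against 9.95% higher and 7.53% lower of all tested genes without CPT and 9.57% and 7.39% with CPT, and the medians were 0.31 and 0.39. IER3, a stress and ERK response gene, went from 4.90 ± 0.769 CPM in Con to 13.3 ± 1.17 in GTA+5-Aza (1.44, adjusted p = 9.72e-07) and rose by 1.31 with CPT. RHOB, a small GTPase, rose by 0.81 and 0.72, and CCN1, a matricellular protein gene induced by serum, by 0.54 and 0.53. PLK2, a kinase of the stress response, was the abundant exception and fell from 681.8 ± 8.78 to 545.5 ± 16.4 CPM, by 0.32 without and 0.28 with CPT. Of the outputs of the ERK pathway 19 of 20 were tested, and against the same shares of all genes 12 rose and 2 fell in each comparison, with medians of 0.34 and 0.34. ETV4, an ETS factor downstream of ERK, rose from 43.3 ± 1.82 to 79.4 ± 7.22 CPM (0.88, adjusted p = 1.77e-07), and SPRY4, a feedback inhibitor of the pathway, rose by 0.37 and 0.34. EPHA4, an ephrin receptor, fell from 176.6 ± 10.8 to 109.7 ± 9.48 CPM, by 0.69 and 0.58.

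Of the AP-1 target genes 18 of 24 were tested. Without CPT 8 rose (9.95% of all tested genes) and with CPT 10 rose (9.57%), none fell, and the medians were 0.26 and 0.40. With the GC trend removed 7 rose and 1 fell without CPT and 9 rose and 1 fell with CPT. PLAUR, the urokinase receptor, went from 8.29 ± 0.522 CPM in Con to 19.0 ± 1.83 in GTA+5-Aza and from 9.19 ± 1.22 in CPT to 20.1 ± 2.40 in CPT+GTA+5-Aza, log2 fold changes of 1.20 (adjusted p = 1.18e-06) and 1.13 (adjusted p = 2.54e-06). Its ligand PLAU rose by 0.48 and 0.51, and the cytokine gene LIF by 1.02 and 1.13. Of the target genes of KLF2 and KLF4 8 of 15 were tested, and 4 rose without and 5 with CPT, with medians of 0.42 and 0.47. CDKN1A, the cell cycle inhibitor p21, rose by 2.81 and 2.69 from 0.538 ± 0.268 CPM in Con. THBS1, a matrix glycoprotein gene, was at 0.0337 ± 0.0293 CPM in Con and 0.911 ± 0.482 in GTA+5-Aza, and at 0 in all CPT libraries, which allows up to 3 counts in each, and 0.978 ± 0.419 in CPT+GTA+5-Aza. S1PR1, a lipid receptor, rose by 2.22 with CPT and had 0.82 (adjusted p = 0.377) without, and the peptide hormone gene ADM rose by 0.43 without CPT and had 0.36 (adjusted p = 0.0661) with it. Of the EGR1 target genes 11 of 14 were tested, and 2 rose in each comparison, TGFB1 (0.27 and 0.34) and NAB2, beside 9.95% and 9.57% of all tested genes. None fell without CPT and 1 fell with CPT, and the medians were 0.09 and 0.09.

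Without GTA+5-Aza replicate 3, a setting chosen after the data were seen, the genes called without CPT were 9 higher and 2 lower for the immediate early genes, 11 and 2 for the ERK outputs, 6 and 0 for the AP-1 targets, 2 and 0 for the KLF2 and KLF4 targets, and 1 and 0 for the AP-1 partners. The other KLF factors and the EGR family had 1 higher each and the SRF list 1 higher and 1 lower, and no EGR1 target was called. With each library's GC trend removed, also chosen after the data were seen, the KLF2 and KLF4 targets had 2 genes higher without and 3 with CPT, the AP-1 partners 1 higher and 1 lower without and 2 higher and 1 lower with CPT, and the EGR1 targets 1 higher in each, with 1 lower with CPT. The other KLF factors had 1 higher without and 2 with CPT, with medians of 0.05 and -0.01. The EGR family had 2 higher without and 3 with CPT, the SRF list 1 higher and 1 lower in each, the immediate early genes 11 and 3 without and 13 and 3 with CPT, and the ERK outputs 14 and 2 without and 13 and 2 with CPT. With CPT, none of the 9 lists had a called gene in unprimed cells, in primed cells or averaged. The smallest unadjusted p-values of the listed genes averaged over both belonged to CDKN1C, a cell cycle inhibitor (-0.44, adjusted p = 0.636 by edgeR's quasi-likelihood test), KLF10, a TGF-beta induced factor (0.19, adjusted p = 0.790), and the cytokine gene IL11 (-1.03, adjusted p = 0.882).

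**Figure D4:**
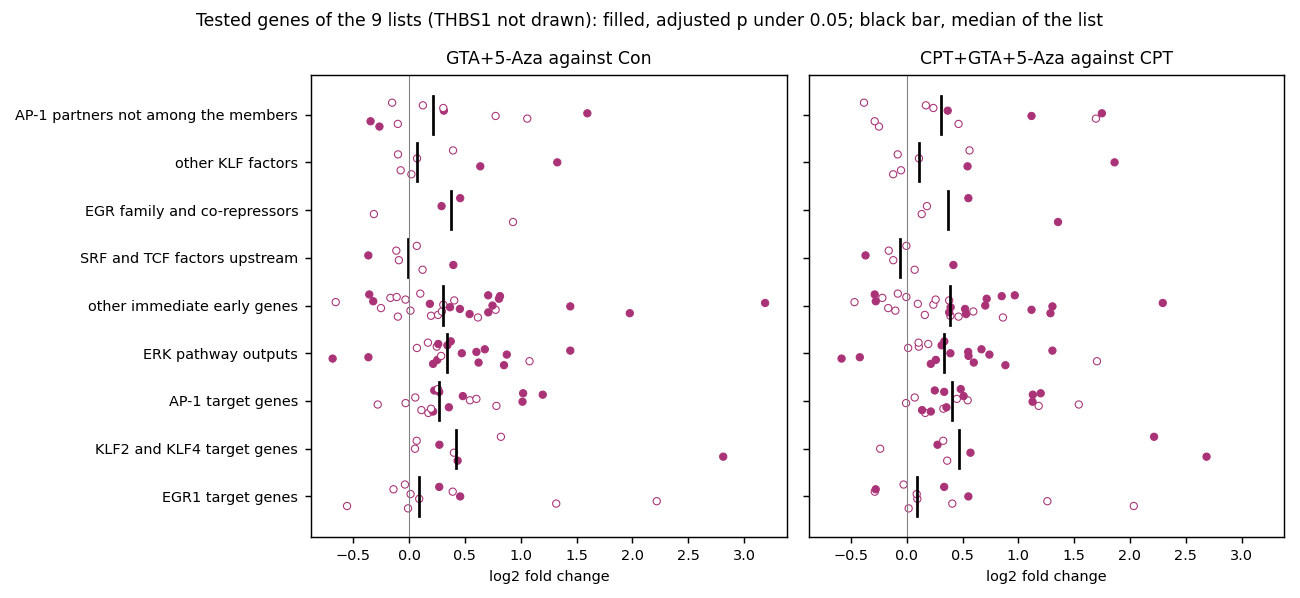
Log2 fold change with GTA+5-Aza of each tested gene in the 9 lists, without CPT (left) and with CPT (right). Filled points passed an adjusted p under 0.05, and black bars mark the medians (0.31 and 0.39 for the immediate early genes, 0.34 and 0.34 for the ERK outputs, 0.09 and 0.09 for the EGR1 targets). THBS1 is not drawn because its CPT libraries were at 0.

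Across the 12 libraries, genes with a mean log2 CPM above 2 were ranked by the Pearson correlation of log2 CPM with each factor, given as a description, since the libraries fall into 4 groups of 3. The genes most like EGR1 were UCA1 (r = 0.977), PXN-AS1 (0.971) and POLR2A (0.967), those most like JUN were PLXNA3 (0.988), KSR1 (0.985) and FSCN1 (0.985), and those most like JUNB were EHBP1L1 (0.987), PROCR (0.987) and PRKCD (0.984). KLF2 was most like POLR2A (0.975), RTL8A (0.971) and MBD6 (0.955), FOSL2 like DIP2C (0.974), PCNT (0.972) and TFAP2A (0.970), and KLF6 like CCT6A (0.968) and DNAJC16 (0.944). The factors that were not called had lower values, with COP1 (0.857), VSIG10 (0.844) and CIAPIN1 (0.817) for KLF4, HBEGF (0.897), FOXD1-AS1 (0.884) and DCK (0.875) for KLF5, RELB (0.910), PECR (0.897) and a gene known here by identifier only (0.903) for FOS, and NAXD (0.937), SGF29 (0.893) and CLCF1 (0.885) for FOSL1. Among the factors themselves, r was 0.922 for JUN with EGR1 and 0.776 after the group means were removed, the highest of all pairs then. It was 0.920 and 0.492 for JUN with JUNB. KLF2 and KLF6 had -0.831 and -0.741, the lowest of all pairs after removal. Other pairs lost or reversed their relation once the group means were removed. JUNB with EGR1 went from 0.895 to 0.190, KLF2 with JUNB from 0.857 to 0.174, FOSL2 with JUN from -0.869 to 0.211 and FOSL2 with JUNB from -0.797 to 0.744. Each value is over 12 libraries, which differ in treatment by group.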

How the data were processed

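RNA-seq libraries of MiaPaca2 cells (n = 3 per group) were used. Per the labels, the submitters' processing used Trim Galore for trimming, HISAT2 2.2.1 for alignment to GRCh38 and HTSeq for counting. The deposited values are whole-number counts per gene that the authors did not normalize. The strand setting of the counting and the annotation release are not given in the sources used here, so reads of overlapping or antisense genes could not be separated. Symbols, coordinates and exon lengths are from GENCODE v44, which holds 52181 of 63677 identifiers.

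The tests were run with edgeR 4.0.16 in R 4.3.3 (filterByExpr, TMM scaling, glmQLFit and glmQLFTest, 2-sided, all 12 libraries in 1 fit of 4 group means, 17123 genes tested), and DESeq2 1.42.0 as an alternative. The common dispersion was 0.0101 and the prior degrees of freedom 18.3. Intervals are 95%. On simulated counts for GTA+5-Aza against Con over 17123 genes, 54.2%, 70.6% and 89.9% of genes changed 1.5-, 2- and 3-fold were called. Only a small share of the genes was changed there, in either direction, drawn at random over a wide range of levels. In the data many more genes were called, so these shares are not the power for the factors described here. Total counts per library were 16162490 to 21224665, and a count of 0 allows up to 3 counts, for counting error only.

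The genes, the 9 lists and the tests were chosen with earlier results of these data known. Named were the 10 factors, of each list the called genes (the 4 with the smallest p where there were more), the 3 listed genes with the smallest p for CPT averaged, and the 3 genes most correlated with each factor; 3 genes that this rule names are not reported here. Alternatives were other scalings, filters and tests, fits of the 2 groups alone, the replicate number as a block, removal of each library's GC trend and leaving out each library.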

Additional observations from a re-analysis of the deposited data

How the results depend on the processing

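Of 1120 log2 fold changes of the 10 factors under the alternatives, 1111 neither lost nor gained a call (those of KLF4 that were given no test included), 7 lost a call (all KLF6) and 2 gained one (KLF4 and FOS, with priming in the presence of CPT). The gained call of KLF4 came from libraries that took part in its choice and is only a description. No called value changed sign, and 56 values of 17 comparisons that were not called did, 2 of these comparisons being FOSL1 with priming. Scaling by library size alone left 1 factor lower with priming in each comparison, and raised the share of all called genes that were higher from 56.9% to 68.9% without and from 56.4% to 69.0% with CPT; the cause was not tested. Leaving out 1 library gave 1930 (without GTA+5-Aza replicate 3) to 2751 called genes for priming without CPT (2993 with all libraries). Priming with CPT gave 1953 to 3767 (without CPT replicate 2), against 2904 with all libraries. In these fits 1 to 2 factors were lower without CPT and 1 to 3 with CPT, and 4 to 5 were higher with CPT. The 3 lower include KLF4, without CPT replicate 2. Few genes were called with CPT in any setting. Genes called for CPT averaged were 2 with upper quartile scaling, 19 with no filter, 15 with DESeq2, 14 with the likelihood ratio test, 13 with the GC trend removed and 0 to 10 when 1 library was left out. In unprimed cells they were 10 with no filter, 4 with DESeq2, the likelihood ratio test or the GC trend removed, and 0 to 1 when 1 library was left out. In primed cells they were 4, 1 and 3 with no filter, DESeq2 and the likelihood ratio test, 2 with only the 2 groups in the fit, and 0 to 1 when 1 library was left out. The interaction gave 11 with no filter and 3 with the likelihood ratio test. None of these settings called a tested factor for CPT; the causes were not tested. Same-numbered libraries of different groups had correlations of -0.289 to 0.351 over 18 pairs, 3 of them over 0.1. Differently numbered ones had -0.304 to 0.295 over 36 pairs, 8 of them over 0.1. No pairing by number was seen, though these values cannot exclude it. The replicate block gave 2888 and 2767 called genes for priming, 1 for CPT in unprimed cells and 1 averaged, and changed no call of a factor. The replicate block with the GC trend removed gave 6 in unprimed cells and 13 averaged. Of 54 counts of called list genes under the settings added after seeing the data, 16 moved by over 1.5 times. Values near 0 that changed sign were those of FOSL1 with priming, at -0.079 without and -0.071 with CPT when the GC trend was removed and at -0.076 and -0.070 when the replicate block was added to that. When 1 library was left out, FOSL1 with priming ran from -0.048 to 0.086 without and -0.026 to 0.069 with CPT. With CPT in unprimed cells FOSL2 ran from -0.048 to 0.027, JUN from -0.15 to 0.040 and JUNB from -0.19 to 0.22, and in primed cells KLF5 from -0.085 to 0.070, KLF6 from -0.010 to 0.097 and FOS from -0.10 to 0.31. Averaged, FOS ran from -0.17 to 0.041 and JUNB from -0.011 to 0.19. The interaction ran from -0.016 to 0.21 for KLF2, -0.060 to 0.047 for KLF6, -0.057 to 0.079 for FOSL1, -0.12 to 0.074 for JUN, -0.053 to 0.35 for JUNB and -0.21 to 0.036 for EGR1. For FOSL1 it was 0.0013 with DESeq2 size factors, 0.00076 with a filter of 1 CPM in 3 libraries, 0.0012 with DESeq2, 0.0075 with the GC trend removed and 0.0060 with the replicate block and GC trend removed, and the last 2 gave -0.0035 and -0.0022 for KLF6. Low counts limit FOS, KLF4 and KLF5.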
